A study of Mus musculus with 12 samples.

Results

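Chemokines and chemokine receptors of activated CD4 T cells were followed through 5 ligand genes, *Ccl3*, *Ccl4*, *Ccl5*, *Xcl1* and *Cxcl10*, and 4 receptor genes, *Cxcr3*, *Cxcr4*, *Ccr4* and *Ccr8*. These 9 genes were chosen by name and matched by symbol, each to a single identifier, among the 49585 genes of the count files. The study asked what RNMT, the enzyme that methylates the guanosine of the mRNA cap, contributes to T cells after activation. Controls were female *Rnmt* fl/fl mice without CD4cre, and *Rnmt* cKO mice were female *Rnmt* fl/fl mice that carried it, so that both genotypes held the floxed alleles, in which loxP sites flank exon 3, on a C57BL/6J background. The Cre is driven from a CD4 transgene and acts at the double positive stage of the thymus, so the CD8 lineage is deleted as well. No age was given. CD4 T cells were isolated from lymph nodes with a kit for naive cells, cultured for 20 h on plates coated with antibodies to CD3 (at 5 ug/ml) and to CD28 (at 1 ug/ml), and exposed to 0.1 mg/ml cycloheximide, which holds ribosomes in place, for 1 min before lysis. Total cytoplasmic RNA and ribosome protected fragments (RPF, the stretches of mRNA that ribosomes cover) were sequenced for 3 mice per genotype, which gave 12 libraries. Reads counted on genes numbered 18915961 to 19111659 in control total RNA, 15079703 to 22629563 in *Rnmt* cKO total RNA, 6786164 to 10661356 in control RPF and 4123271 to 10166729 in *Rnmt* cKO RPF, where replicate 3 was the shallowest.

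Chemokines are small secreted proteins that direct the migration of leukocytes through receptors that span the membrane and couple to inhibitory G proteins. Activated T cells secrete CCL3, CCL4 and CCL5, which attract other leukocytes to sites of inflammation, and XCL1, whose receptor XCR1 marks dendritic cells that present antigen to CD8 T cells. CXCL10 is an interferon-induced ligand of CXCR3, a receptor of effector T cells, while CXCR4 responds to CXCL12, CCR4 to CCL17 and CCL22, and CCR8 to CCL1.

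The ligand genes lay at 3 places in the genome (GRCm38, positions from GENCODE). *Ccl3* (ENSMUSG00000000982, chr11:83647844-83649355, minus strand), *Ccl4* (ENSMUSG00000018930, chr11:83662584-83664683, plus strand) and *Ccl5* (ENSMUSG00000035042, chr11:83525778-83530518, minus strand) were neighbours on chromosome 11. *Xcl1* (ENSMUSG00000026573, chr1:164931644-164935527, minus strand) lay on chromosome 1 and *Cxcl10* (ENSMUSG00000034855, chr5:92346638-92348889, minus strand) on chromosome 5. The receptor genes were *Cxcr3* (ENSMUSG00000050232, chrX:101731535-101734269, minus strand), *Cxcr4* (ENSMUSG00000045382, chr1:128588199-128592293, minus strand), *Ccr4* (ENSMUSG00000047898, chr9:114490316-114504916, minus strand) and *Ccr8* (ENSMUSG00000042262, chr9:120092114-120094906, plus strand). *Xcl1* overlaps the annotated gene *Gm20743*, and *Cxcl10* overlaps *Art3*, both on the opposite strand, and the counts used here kept the strands apart.

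Promoter sequence was read for 3 ligands whose RNA was higher in *Rnmt* cKO cells (values below), to show which letters of known activation motifs stand before their start sites. RefSeq (GRCm38.p6) held promoters for 7 of the 9 genes, the missing ones being *Ccl4* and *Ccl5*. Capitals mark matches on either strand to AP-1 (TGANTCA), NF-kB (GGG and CC with any 5 bases between), NFAT (GGAAA) and the interferon response motif (GAAA and GAAA with any 2 bases between).
Cxcl10 promoter, chr5:92348890-92349139, minus strand: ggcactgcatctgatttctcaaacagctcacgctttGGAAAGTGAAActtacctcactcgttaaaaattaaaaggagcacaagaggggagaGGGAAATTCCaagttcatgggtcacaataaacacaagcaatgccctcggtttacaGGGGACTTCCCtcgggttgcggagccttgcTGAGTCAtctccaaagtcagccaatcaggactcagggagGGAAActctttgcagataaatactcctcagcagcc
Ccl3 promoter, chr11:83649379-83649628, minus strand: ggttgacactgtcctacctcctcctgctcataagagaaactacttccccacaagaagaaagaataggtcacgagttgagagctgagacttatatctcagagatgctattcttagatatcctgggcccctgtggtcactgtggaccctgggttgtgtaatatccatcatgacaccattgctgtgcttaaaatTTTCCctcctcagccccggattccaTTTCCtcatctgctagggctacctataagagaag
Xcl1 promoter, chr1:164935528-164935772, minus strand: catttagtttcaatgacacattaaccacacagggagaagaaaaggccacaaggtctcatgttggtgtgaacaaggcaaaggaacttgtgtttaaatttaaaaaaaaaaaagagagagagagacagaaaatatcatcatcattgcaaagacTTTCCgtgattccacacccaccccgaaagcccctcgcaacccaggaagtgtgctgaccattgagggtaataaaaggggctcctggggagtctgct
The sequences run 5′ to 3′ and end at the base before the start site; 5 bases were left out for *Xcl1*, whose GENCODE start lies upstream of that of RefSeq. In *Cxcl10*, the interferon response match GAAAGTGAAA began 213 bases before the start, the NF-kB match GGGAAATTCC 159 bases before it, the overlapping NF-kB matches GGGGACTTCC and GGGACTTCCC 104 and 103 bases before it, and the AP-1 match TGAGTCA 74 bases before it. The NFAT letters of *Cxcl10* at 214 and 158 bases overlapped the interferon response and NF-kB matches, and another lay at 35 bases. *Ccl3* had the NFAT letters at 59 and 34 bases and *Xcl1* at 100 bases, with no match to the other 3 motifs in these windows. Distances were counted from the RefSeq start, so that of *Xcl1* includes the 5 bases left out of the printed sequence. Among 32536 distinct promoter windows of 250 bases, 6.73% held the AP-1 letters, 46.0% those of NF-kB, 55.7% those of NFAT and 2.98% those of the interferon response, so that the NF-kB and NFAT letters were common and the other pair was not.

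A 3′ UTR window of *Ccl3* is shown because ATTTA, found in its capitals, is the core of AU-rich elements, the signals that mark many cytokine mRNAs for rapid decay. *Ccl3* held 5 such cores in a 3′ UTR of 409 bases, as many as or more than which 1.20% of 1993 genes with 3′ UTRs of like length held.
Ccl3 3′ UTR window, chr11:83648075-83648104, minus strand: ttgaaattttATTTAATTTAatcctattgg
*Cxcl10* had 3 in 996 bases and *Xcl1* had 1 in 141 bases, counts that 31.3% and 17.8% of genes of like length reached, whereas *Ccl5* had none in 199 bases. Among the receptors, *Ccr4* had 2 cores in 1597 bases and *Cxcr4* had 1 in 644 bases, counts that 68.2% and 59.3% of genes of like length reached, and *Cxcr3* and *Ccr8* had none in 416 and 24 bases. The 9-base form TTATTTATT was found in none of these 3′ UTRs.

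*Rnmt* itself was checked first. In total RNA it stood at 95.3, 93.9 and 94.1 CPM in the controls and at 29.3, 32.3 and 30.4 CPM in *Rnmt* cKO libraries, where CPM is the count scaled to the size of the library after TMM normalization. In RPF it stood at 104, 87.7 and 98.7 CPM in the controls and at 10.5, 10.3 and 9.57 CPM in *Rnmt* cKO. The genotypes were far apart in both kinds of library, with log2 fold changes of -1.62 ± 0.062 (SE) and -3.24 ± 0.10, as their labels say.

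The cells carried T cell transcripts: all 11 markers of CD4 T cells passed the filter on low counts, *Cd4* itself lay between 270.4 and 349 CPM in total RNA, and *Cd28* was the most abundant. Of these 11, 7 were lower and none higher in *Rnmt* cKO total RNA, where 28.0% of all genes were lower and 26.3% higher, among them *Cd3g*, a subunit of the T cell receptor complex, with a log2 fold change of -1.23 (edgeR adjusted p = 7.5e-05). B cell markers set some libraries apart. The sum of 6 of them (*Cd79a*, *Cd79b*, *Ms4a1*, *Ighd*, *Cd22* and *Pax5*) in total RNA was 10.8, 8.56 and 33.0 CPM in control replicates 1 to 3, and 79.0, 97.4 and 20.3 CPM in *Rnmt* cKO replicates 1 to 3. *Rnmt* cKO replicates 1 and 2 were thus high, replicate 3 lay within the controls, and the RPF libraries had the same order. *Ighm*, the remaining and most abundant marker of the list, did not follow it in total RNA, at 287, 284 and 272 CPM in the controls and 241, 194 and 186 CPM in *Rnmt* cKO. In RPF *Ighm* was 113, 108 and 138 CPM in the controls and 156, 179 and 66.0 CPM in *Rnmt* cKO, again with replicates 1 and 2 highest. In total RNA 3 of the 6 B cell markers tested were higher and 1, *Ighm*, was lower. Values for *Rnmt* cKO replicate 3 alone against the 3 controls are given below where these libraries matter.

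Markers of other cells were also measured. Myeloid markers summed to 0.318 to 0.687 CPM in control and 0.948 to 1.63 CPM in *Rnmt* cKO total RNA, with *Tyrobp* the most abundant and *Cd14* at 0 counts in all but 1 total RNA library. None was tested in total RNA, and *Fcer1g*, an adaptor of Fc receptors, was the 1 tested in RPF, at 0.0937, 0.150 and 0 CPM in control and 1.28, 2.43 and 1.23 CPM in *Rnmt* cKO (edgeR adjusted p = 0.0043), a test it reached through the *Rnmt* cKO libraries. The 7 NK cell markers summed to 3.12, 3.59 and 3.77 CPM in control and 24.4, 44.9 and 22.2 CPM in *Rnmt* cKO total RNA, so that all 3 *Rnmt* cKO libraries were high. The NK cell receptors of the list were scarce, *Klre1* reaching 1.02 CPM and *Ncr1* 0.618 CPM in total RNA. *Klra4* was 0.106, 0.0528 and 0 CPM in control and 0.203, 0.412 and 0.0431 CPM in *Rnmt* cKO total RNA. *Klra8* was 0.053, 0.0528 and 0.0538 CPM in control and 0, 0.206 and 0.0431 CPM in *Rnmt* cKO. The genotypes overlapped for *Klra4* and *Klra8*, and neither was tested. *Ncr1* was 0.106, 0.106 and 0 CPM in control and 0.474, 0.618 and 0.388 CPM in *Rnmt* cKO, *Klre1* was 0.159, 0.106 and 0.161 CPM and 1.02, 0.309 and 0.431 CPM, and *Klrb1c* was 0 to 0.0538 CPM and 0.259 to 0.463 CPM, all too low to be tested. *Eomes*, a transcription factor of NK cells and of effector T cells, made up most of that sum and rose from 2.44, 3.01 and 3.23 CPM to 20.1, 35.6 and 20.4 CPM (log2 fold change 3.13, edgeR adjusted p = 5.9e-05). *Gzma*, a cytotoxic granule protease, lay at 0.264 to 0.269 CPM in control and at 2.23, 7.26 and 0.604 CPM in *Rnmt* cKO total RNA, and in RPF at 0, 0 and 0.122 CPM and at 5.25, 17.9 and 1.47 CPM, where it was called (adjusted p = 0.0042) but passed the filter only through the *Rnmt* cKO libraries. *Trdc*, of the gamma delta T cell receptor, rose from 7.62, 7.03 and 6.40 CPM to 20.5, 18.2 and 20.5 CPM in total RNA. The other markers of that list were too low there to be tested. *Tcrg-C1* was 0.212, 0.317 and 0.108 CPM in control and 0.745, 0.566 and 0.733 CPM in *Rnmt* cKO. *Sox13* was 0.212, 0.159 and 0.0538 CPM in control and 0.271, 0.360 and 0.345 CPM in *Rnmt* cKO. *Cd8a* was 9.74, 10.0 and 24.1 CPM in the controls and 16.5, 9.16 and 3.49 CPM in *Rnmt* cKO, without a call for either CD8 marker. Of the 2 regulatory T cell markers, *Ikzf2* rose (log2 fold change 1.12). *Foxp3*, the defining factor of these cells, was 0.900, 0.792 and 0.699 CPM in control and 0.881, 0.360 and 0.388 CPM in *Rnmt* cKO total RNA, where it was not tested, and its RPF value was -0.19 (adjusted p = 0.56). The part of these cells in the results below was not tested except where values are given, and in bulk RNA more cells of a type cannot be told apart from more RNA per cell.

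The levels of the 9 genes differed widely. Per kilobase of exon, the order in control total RNA was *Xcl1* at 28.4 ± 4.80 CPM per kb (mean ± SD, n = 3), *Ccl4* at 28.2 ± 2.23, *Ccl3* at 7.67 ± 1.30, *Ccr4* at 6.14 ± 0.685, *Cxcr4* at 3.72 ± 0.238, *Ccr8* at 1.95 ± 0.350, *Cxcr3* at 0.840 ± 0.184, *Ccl5* at 0.670 ± 0.560 and *Cxcl10* at 0.503 ± 0.363. The ranges of *Xcl1* and *Ccl4*, of *Ccl3* and *Ccr4*, and of *Cxcr3*, *Ccl5* and *Cxcl10* overlapped, so these neighbours were not separated. In *Rnmt* cKO total RNA *Ccl4* at 93.5 ± 17.3 and *Xcl1* at 87.9 ± 34.8 CPM per kb again led, and *Cxcr3* was last at 1.72 ± 0.048. None approached *Ccr7*, the receptor that keeps naive T cells in lymph nodes, which stood at 442 ± 31.1 CPM per kb in control and 696 ± 52.2 in *Rnmt* cKO total RNA.

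All 5 ligands were higher in *Rnmt* cKO than in control total RNA past the threshold, and 4 of the 5 in RPF. *Ccl3*, *Ccl4* and *Xcl1* could have gone either way, whereas *Ccl5* in total RNA and *Cxcl10* in both kinds passed the filter on low counts only through the *Rnmt* cKO libraries, where they were high. Of all genes tested in total RNA, 54.2% passed the threshold, 26.3% higher and 28.0% lower, and in RPF 29.8% passed it, 14.1% higher and 15.7% lower. Together the 5 ligands held 36.3, 40.5 and 44.7 CPM in control and 129, 97.2 and 164 CPM in *Rnmt* cKO total RNA. *Ccl3*, *Ccl4* and *Xcl1* supplied between 94.3 and 99.1% of this sum in every total RNA library, so the remaining pair contributed little RNA in either genotype.

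**Figure D1:**
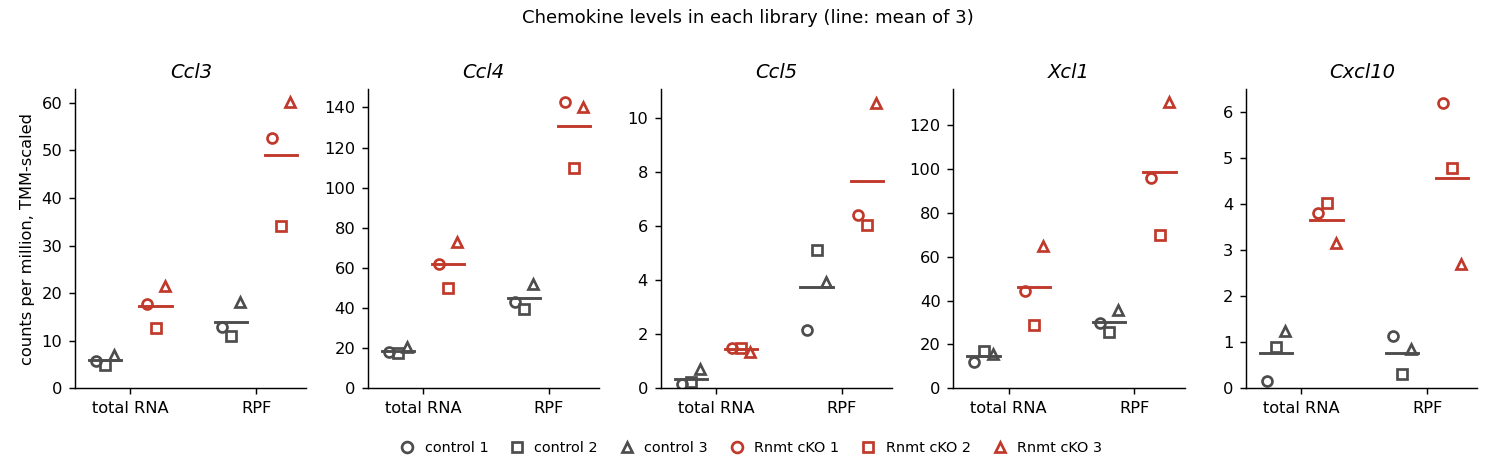
Level of each of the 5 chemokine genes in every library, in TMM-scaled CPM (vertical axis, linear from 0), for total RNA and RPF. Symbols are replicates 1 to 3 of control (grey) and *Rnmt* cKO (red) and lines are means of 3. For each ligand in each kind of library the genotypes did not overlap. The share of all genes that separate in this way was not computed. *Rnmt* cKO replicate 2 was the lowest *Rnmt* cKO library for *Ccl3*, *Ccl4* and *Xcl1*.

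*Ccl4*, the most abundant ligand by counts, stood at 18.2, 17.4 and 20.3 CPM in control and 62.0, 50.2 and 73.0 CPM in *Rnmt* cKO total RNA. In RPF it stood at 43.1, 39.2 and 52.1 CPM in control and 143, 110 and 140.2 CPM in *Rnmt* cKO. All *Rnmt* cKO libraries exceeded the highest control more than 2-fold. The rise was 3.31-fold in total RNA (log2 fold change 1.73 ± 0.14, SE, edgeR adjusted p = 4.9e-05) and 2.91-fold in RPF (1.54 ± 0.13, adjusted p = 2e-04).

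*Ccl3*, whose product attracts macrophages and T cells, stood at 5.72, 4.97 and 6.94 CPM in control and 17.7, 12.7 and 21.4 CPM in *Rnmt* cKO total RNA. In RPF it was 12.8, 11.0 and 18.1 CPM in control and 52.5, 34.2 and 60.1 CPM in *Rnmt* cKO. The libraries separated by genotype in both kinds, and *Ccl3* rose by 1.56 ± 0.21 on the log2 scale in total RNA (edgeR adjusted p = 0.00053) and by 1.79 ± 0.24 in RPF (adjusted p = 0.0013). The level of *Ccl4* was 2.92 to 3.51 times that of *Ccl3* in control and 3.42 to 3.95 times in *Rnmt* cKO total RNA, and 2.88 to 3.57 times and 2.33 to 3.21 times in RPF, in counts not divided by length.

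*Xcl1*, the lymphotactin gene, stood at 12.1, 17.0 and 15.5 CPM in control and 44.2, 28.8 and 65.0 CPM in *Rnmt* cKO total RNA. Its RPF were 29.9, 25.4 and 35.8 CPM in control and 95.8, 69.8 and 131 CPM in *Rnmt* cKO. *Rnmt* cKO replicate 3 was the highest and replicate 2 the lowest of the *Rnmt* cKO libraries in both kinds. The rise was 3.11-fold in total RNA (log2 fold change 1.63 ± 0.28, edgeR adjusted p = 0.0017) and 3.21-fold in RPF (1.68 ± 0.22, adjusted p = 0.0012).

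*Cxcl10* was scarce in both genotypes. Its counts in total RNA were 3, 17 and 23 reads in control and 56, 78 and 73 reads in *Rnmt* cKO, or 0.159, 0.898 and 1.24 CPM against 3.79, 4.02 and 3.15 CPM. In RPF the counts were 12, 2 and 7 reads in control and 53, 49 and 11 reads in *Rnmt* cKO, or 1.12, 0.301 and 0.856 CPM against 6.19, 4.77 and 2.70 CPM. The genotypes did not overlap, with a log2 fold change of 2.24 ± 0.44 in total RNA (edgeR adjusted p = 0.0034) and 2.53 ± 0.48 in RPF (adjusted p = 0.0059). Only 1 control library of each kind passed the minimum of 1 CPM, so *Cxcl10* entered the test through the *Rnmt* cKO libraries and had to differ to be tested.

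*Ccl5*, which encodes a late product of activated T cells, had 3, 4 and 13 reads in control and 22, 29 and 31 reads in *Rnmt* cKO total RNA, or 0.159, 0.211 and 0.699 CPM against 1.49, 1.49 and 1.34 CPM. In RPF it was higher in both genotypes, at 2.16, 5.11 and 3.91 CPM in control and 6.42, 6.04 and 10.6 CPM in *Rnmt* cKO. *Ccl5* rose in total RNA by 1.99 ± 0.43 on the log2 scale (edgeR adjusted p = 0.0055), a test it reached through the *Rnmt* cKO libraries alone, since no control library passed 1 CPM. Without control replicate 3, the library with 13 reads, the log2 fold change was 2.91. In RPF, where every library passed the minimum, the log2 fold change was 1.03 ± 0.36 with an adjusted p of 0.063, which missed the threshold although the libraries did not overlap. DESeq2 gave an adjusted p of 0.04 for the same RPF counts and the exact test of edgeR 0.038.

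All 4 receptors had log2 fold changes above 0 in both kinds of library. Past the threshold were 3 in total RNA (*Cxcr3*, *Cxcr4* and *Ccr8*) and 1 in RPF (*Cxcr4*), and none was lower. Over all 9 genes, 8 were higher in total RNA, with a median log2 fold change of 1.56, and 5 in RPF, with a median of 1.11, beside 26.3% and 14.1% of all genes tested and medians of -0.0037 and 0.0080. The 8 include *Ccl5* and *Cxcl10* and the 5 include *Cxcl10*, which had to be higher to be tested. With at least 10 counts required in every library the counts were 6 and 4, beside 2925 and 1489 of all genes. Members were chosen with earlier results known, so these counts describe them and do not test them.

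**Figure D2:**
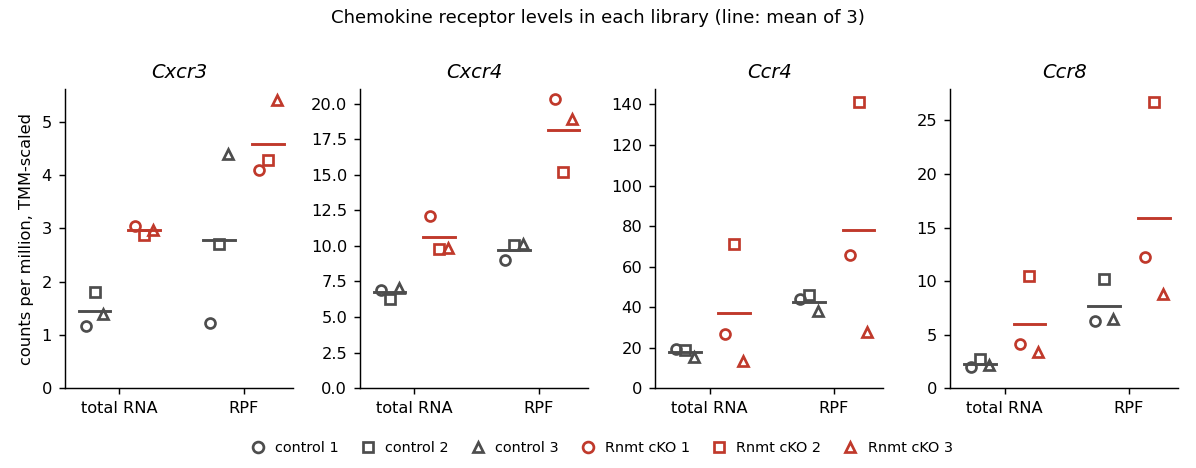
Level of each of the 4 receptor genes in every library, in TMM-scaled CPM (vertical axis, linear from 0). Symbols are replicates 1 to 3 of control (grey) and *Rnmt* cKO (red) and lines are means of 3; *Cxcr4* separated the genotypes in both kinds, while *Rnmt* cKO replicate 2 stood alone for *Ccr4* (71.0 CPM in total RNA) and *Ccr8* (10.5 CPM).

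*Cxcr4*, the receptor for CXCL12 that holds lymphocytes in marrow and lymphoid tissue, was 6.88, 6.23 and 7.05 CPM in control and 12.1, 9.78 and 9.87 CPM in *Rnmt* cKO total RNA. Its RPF were 8.99, 10.1 and 10.1 CPM in control and 20.3, 15.2 and 18.9 CPM in *Rnmt* cKO. The change was the smallest of the 9 in total RNA yet exceeded the spread between libraries: 1.57-fold (log2 fold change 0.65 ± 0.13, edgeR adjusted p = 0.003), and 1.86-fold in RPF (0.89 ± 0.16, adjusted p = 0.0042).

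*Cxcr3*, the receptor for CXCL10, was 1.17, 1.80 and 1.40 CPM in control and 3.05, 2.88 and 2.97 CPM in *Rnmt* cKO total RNA, where it rose 2.04-fold (log2 fold change 1.03 ± 0.20, edgeR adjusted p = 0.0029). In RPF it was 1.22, 2.71 and 4.40 CPM in control and 4.09, 4.29 and 5.40 CPM in *Rnmt* cKO. Control replicate 3 lay among the *Rnmt* cKO libraries there, and the log2 fold change of 0.73 ± 0.44 had an adjusted p of 0.24, with a 95% interval from -0.27 to 1.72. The RPF value was 0.33 without control replicate 1 and 1.25 without control replicate 3, not called in either fit (edgeR adjusted p = 0.51 and 0.072).

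*Ccr8*, a receptor of TH2 and regulatory T cells, was 1.96, 2.75 and 2.15 CPM in control and 4.13, 10.5 and 3.41 CPM in *Rnmt* cKO total RNA. In RPF it was 6.28, 10.2 and 6.48 CPM in control and 12.3, 26.7 and 8.84 CPM in *Rnmt* cKO. Replicate 2 was far above the other *Rnmt* cKO libraries, and replicate 3 fell within the controls in RPF. The log2 fold change was 1.39 ± 0.43 in total RNA (edgeR adjusted p = 0.026) and 1.11 ± 0.39 in RPF (adjusted p = 0.065). Without *Rnmt* cKO replicate 2 the total RNA value was 0.72 (adjusted p = 0.024) and the RPF value 0.49 (adjusted p = 0.25). The total RNA call was lost without control replicate 1 (adjusted p = 0.083) or control replicate 3 (adjusted p = 0.069). For RPF, DESeq2 gave an adjusted p of 0.011, the exact test of edgeR 0.042, and the fit without *Rnmt* cKO replicate 3 a log2 fold change of 1.37 with an adjusted p of 0.022.

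*Ccr4*, which guides TH2 cells, regulatory T cells and skin-homing T cells, was the most abundant of the 4 receptors, at 19.4, 18.6 and 15.6 CPM in control total RNA. The *Rnmt* cKO libraries spread over a 5.35-fold range, at 27.0, 71.0 and 13.3 CPM, and RPF followed it, with 44.0, 46.0 and 37.9 CPM in control and 65.7, 141 and 27.5 CPM in *Rnmt* cKO. *Rnmt* cKO replicate 3 was below every control and replicates 1 and 2 above, so the groups overlapped. The log2 fold changes of 1.05 ± 0.52 in total RNA and 0.91 ± 0.45 in RPF had edgeR adjusted p of 0.12 and 0.17. Without *Rnmt* cKO replicate 2 they fell to 0.15 and 0.17, whereas without replicate 3 they were 1.47 (adjusted p = 0.008) and 1.28 (adjusted p = 0.011).

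Among the *Rnmt* cKO libraries, replicates 1 and 2, with high B cell markers, had more *Ccr4* and *Ccr8* than replicate 3. For *Ccr8* in total RNA replicate 1 was close to replicate 3 (4.13 and 3.41 CPM). The controls did not follow this: replicate 3 had their highest marker sum (33.0 CPM) but their lowest *Ccr4* (15.6 CPM), with *Ccr8* at 2.15 CPM. *Ccl3*, *Ccl4* and *Xcl1* were highest in *Rnmt* cKO replicate 3 in total RNA, where these markers were lower than in replicates 1 and 2. *Rnmt* cKO replicate 3 was not low in the NK cell markers (22.2 CPM in sum, against 3.12 to 3.77 CPM in the controls) or in *Trdc* (20.5 CPM, against 6.40 to 7.62 CPM). Set alone against the 3 controls, *Rnmt* cKO replicate 3 gave log2 fold changes in total RNA of 1.88 for *Ccl3*, 1.98 for *Ccl4* and 2.14 for *Xcl1*, all past the threshold, and 1.91 for *Ccl5* and 2.05 for *Cxcl10*, whose calls (adjusted p = 0.042 and 0.026) rest on genes that passed the filter through the *Rnmt* cKO libraries. For the receptors it gave 1.04 for *Cxcr3* and 0.57 for *Cxcr4*, which stayed past the threshold, 0.59 for *Ccr8*, which did not (adjusted p = 0.12), and -0.41 for *Ccr4* (adjusted p = 0.068). The RPF values were 2.09, 1.63 and 2.09 for *Ccl3*, *Ccl4* and *Xcl1*, past the threshold, and 1.52 for *Ccl5* (adjusted p = 0.11), 1.73 for *Cxcl10* (adjusted p = 0.21), 0.97 for *Cxcr3* (adjusted p = 0.42), 0.95 for *Cxcr4* (adjusted p = 0.051), 0.21 for *Ccr8* and -0.64 for *Ccr4* (adjusted p = 0.073). This comparison was chosen after the data were seen, and a lone library is assumed to vary as the controls do. Replicates 1 and 2 of *Rnmt* cKO had similar marker sums, 79.0 and 97.4 CPM, and *Ccr4* levels of 27.0 and 71.0 CPM.

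**Figure D3:**
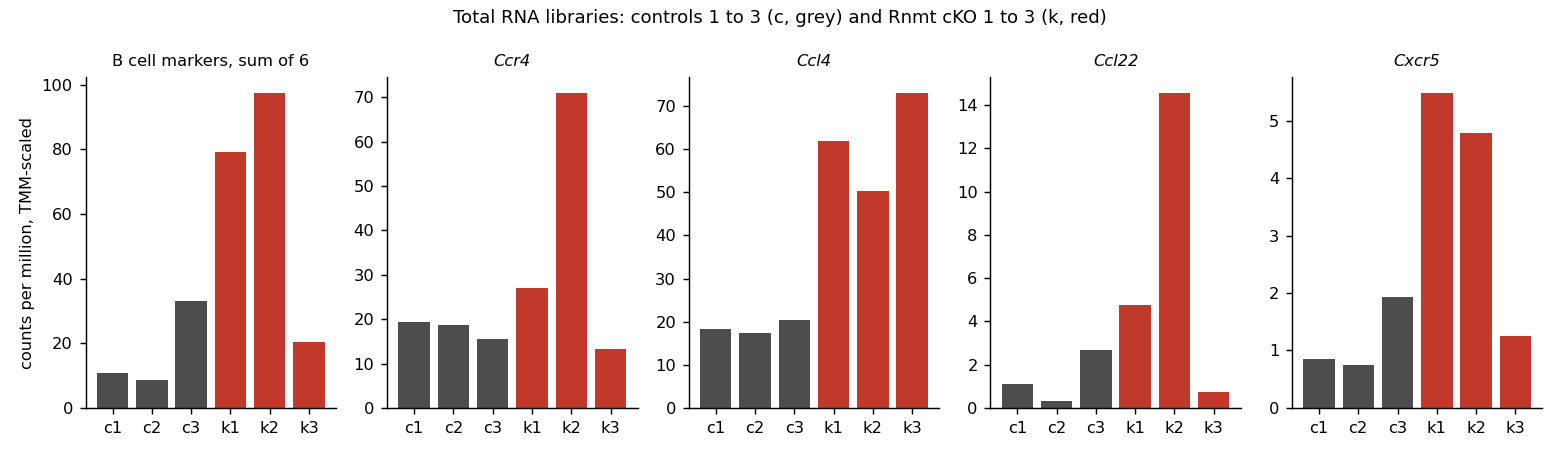
Levels in the 6 total RNA libraries, in TMM-scaled CPM (vertical axes, linear from 0), of the summed 6 B cell markers, *Ccr4*, *Ccl4*, *Ccl22* and *Cxcr5*. Bars c1 to c3 are controls and k1 to k3 *Rnmt* cKO; *Ccl22* and *Cxcr5* were low in k3 with the B cell markers, whereas *Ccl4* was highest there.

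Across the 12 libraries, after removing the mean of each kind and genotype, *Ccl3*, *Ccl4* and *Xcl1* went together, as did *Ccr4* and *Ccr8*, given here as a description because the RPF and total RNA libraries of a mouse share its cells. Pearson's r was 0.97 between *Ccl3* and *Ccl4*, 0.82 between *Ccl3* and *Xcl1* and 0.91 between *Ccr4* and *Ccr8*. It was -0.83 between *Ccl3* and *Ccr4* and -0.93 between *Xcl1* and *Ccr4*, the opposite orders of *Rnmt* cKO replicates 2 and 3 described above.

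The ribosome signal per RNA was compared as translational efficiency (TE), the genotype difference in RPF beyond that in total RNA. None of the 9 genes passed the threshold in TE in either direction with edgeR, where 9.81% of all genes passed it, 3.24% higher and 6.57% lower. None had an unadjusted p under 0.05 either, the lowest being 0.144 for *Ccl5*, and DESeq2 called none of the 5 for which it gave an adjusted p. The estimates ran from -0.96 for *Ccl5* to 0.30 for *Cxcl10*, with a median of -0.13 beside 0.035 over all genes. That of *Ccl5* was -1.80 without control replicate 3 and -0.42 without control replicate 2, and was not called in either fit. *Cxcr4*, at 0.24 with a 95% interval from -0.19 to 0.68, and *Ccl4*, at -0.19 (-0.64 to 0.26), had the narrowest intervals. *Ccl3* at 0.23 (-0.54 to 1.00) and *Xcl1* at 0.043 (-0.82 to 0.91) came next. For *Ccl5* the interval was -2.29 to 0.38, for *Cxcl10* -1.29 to 1.89, for *Cxcr3* -1.33 to 0.74, for *Ccr4* -1.79 to 1.53 and for *Ccr8* -1.66 to 1.14, wider than those of the other 4 genes. These intervals are from the fit without the mouse as a block and so include the spread between mice that RPF and total RNA share. With the mouse as a block none of the 9 was called either, with edgeR adjusted p from 0.25 for *Ccl5* to 0.93 for *Cxcl10*.

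**Figure D4:**
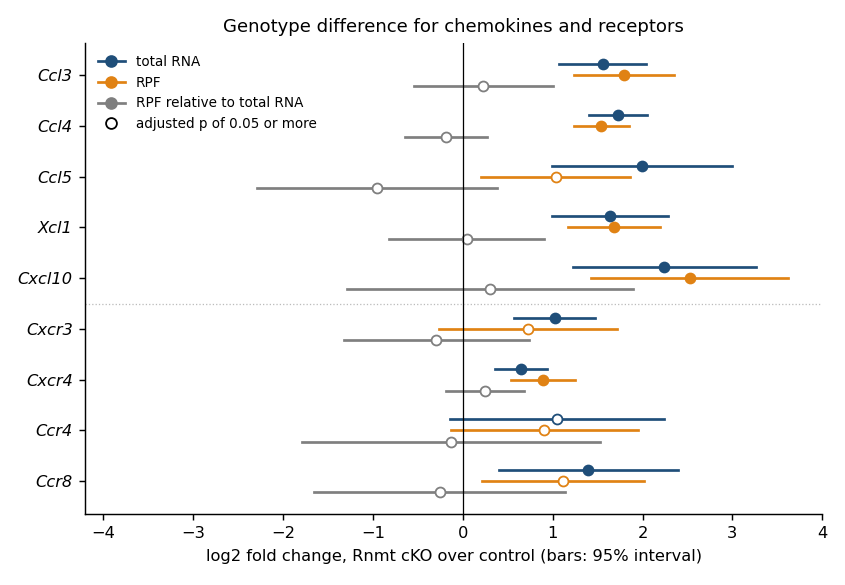
Log2 fold change of *Rnmt* cKO over control (horizontal axis) for each of the 9 genes in total RNA (blue), RPF (orange) and RPF relative to total RNA (grey), with 95% intervals; filled points had an edgeR adjusted p below 0.05. Total RNA and RPF points lie right of 0 for all 9 genes, from 0.65 to 2.24 in total RNA, while the grey intervals all include 0.

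The log2 ratio of RPF to total RNA, taken within each mouse, shows the same comparison mouse by mouse. For *Ccl4* it was 1.24, 1.17 and 1.36 in control and 1.21, 1.13 and 0.94 in *Rnmt* cKO. For *Ccl3* it was 1.17, 1.14 and 1.38 in control and 1.57, 1.43 and 1.49 in *Rnmt* cKO, where the genotypes did not overlap although the TE test gave no call. For *Ccr8* it was 1.68, 1.90 and 1.59 in control and 1.57, 1.35 and 1.38 in *Rnmt* cKO (means 1.72 and 1.43). These did not overlap either, with *Rnmt* cKO the lower, and the TE test gave no call. How often the ratios of all genes separate in this way was not computed. *Cxcl10* had a mean of 0.24 in both genotypes, but its control values were 2.82, -1.58 and -0.53, from libraries with 2 to 23 reads. The mean of 3.61 for *Ccl5* in control rests on the 3, 4 and 13 reads of total RNA. Ribosomes cover only the coding part of an mRNA, so these ratios also depend on how much of it is untranslated and rank no gene against another.

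Most other chemokines and receptors were too sparse to be tested, *Ccr7* being the exception in abundance. Of 34 other chemokines, 14 had no count in any total RNA library and 4 were tested; 3 were higher and 0 lower, beside 26.3% and 28.0% of all genes. *Ccl1*, the CCR8 ligand, was 0.106, 1.53 and 0.215 CPM in control and 3.18, 3.35 and 2.33 CPM in *Rnmt* cKO total RNA (log2 fold change 2.23 ± 0.64, edgeR adjusted p = 0.018) and was the 1 called in RPF (2.63, adjusted p = 0.0057), and as only 1 control library of each kind passed 1 CPM, it entered both tests through the *Rnmt* cKO libraries. *Ccl9* (1.65, adjusted p = 0.0063) and *Ccl25* (0.76, adjusted p = 0.0038) were higher in total RNA, with RPF values of 0.49 and -0.11 that were not called. *Ccl22*, a CCR4 ligand, was 1.11, 0.317 and 2.69 CPM in control and 4.74, 14.6 and 0.733 CPM in *Rnmt* cKO total RNA, high in the libraries with high B cell markers, and was not called (adjusted p = 0.084). *Ccl17*, the other CCR4 ligand, and *Cxcl9* and *Cxcl11*, the other CXCR3 ligands, had 28, 18 and 7 reads over all 12 libraries and were not tested.

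Of 19 other receptor genes, 5 were tested in total RNA; 4 were higher and none lower, beside 26.3% and 28.0% of all genes. Of these 4, *Cxcr5*, *Ccr2* and *Ccrl2* had at most 1 control library above 1 CPM and entered the test through the *Rnmt* cKO libraries. In RPF edgeR called none of the 4 tested, of which 2 had an unadjusted p under 0.05 and 2 were called by DESeq2. *Cxcr5* (log2 fold change 1.67 ± 0.58, edgeR adjusted p = 0.04), the receptor of follicular B and T cells, was 0.847, 0.740 and 1.94 CPM in control and 5.49, 4.79 and 1.25 CPM in *Rnmt* cKO, again high where the B cell markers were. *Ccr2*, of effector T cells and monocytes, rose in total RNA (1.47, adjusted p = 0.007). *Ccrl2*, a related receptor that does not signal, was also higher (1.21, adjusted p = 0.012), while *Cxcr6* had values of -0.57 in total RNA (adjusted p = 0.088) and -0.55 in RPF (adjusted p = 0.17). *Ccr7* was 880.4, 933 and 811 CPM in control and 1285, 1357 and 1489 CPM in *Rnmt* cKO total RNA and rose 0.65 ± 0.080 (adjusted p = 0.00033). Its RPF value was 0.24 (adjusted p = 0.064) and its TE fell by 0.41 (adjusted p = 0.048), the only TE call among the receptors; the 3 ratios of RPF to total RNA per genotype were 1.02, 1.07 and 1.10 in control and 0.625, 0.675 and 0.644 in *Rnmt* cKO.

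Genes that act downstream of the receptors moved in both directions. Of 34 such genes, 32 were tested in total RNA; 7 were higher and 16 lower, with a median log2 fold change of -0.23, beside 26.3% and 28.0% of all genes. In RPF 4 were higher and 12 lower, beside 14.1% and 15.7%. The genes that rose in both were the regulators of G protein signalling *Rgs1*, *Rgs2* and *Rgs16*, which shorten the signal of the G protein. *Rgs2* went from 34.3, 32.6 and 44.2 CPM to 257, 234 and 338 CPM in total RNA (log2 fold change 2.90 ± 0.17, edgeR adjusted p = 1.4e-05) and rose less in RPF (0.91, adjusted p = 0.0031). *Rgs1* rose by 1.46 in total RNA and 0.94 in RPF, and *Rgs16* by 1.17 and 0.92. Other members of that family went down, *Rgs14* by -1.45 and -1.22 and *Rgs10* by -1.05 and -0.86, so that the list was not uniform even within a family.

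The falls covered several steps from receptor to cytoskeleton. *Plcb2*, a phospholipase that G protein subunits activate, went from 15.2, 15.1 and 19.3 CPM to 6.43, 5.30 and 5.60 CPM (log2 fold change -1.52 ± 0.14, adjusted p = 8.1e-05) and was -1.36 in RPF. *Gnai2*, the main inhibitory G protein subunit of lymphocytes (-0.62 and -0.35), *Gng2*, a gamma subunit (-1.11 and -1.19), and *Arrb1*, which desensitises receptors (-1.18 and -0.86), were lower in both kinds. *Dock2*, the activator of Rac that lymphocytes need to migrate (-0.997 and -0.86), its target *Rac2* (-0.68 and -0.57), and *Coro1a*, which binds actin (-0.71 and -0.44), were lower as well. Other genes at these steps did not fall: *Rac1* was 0.14 in total RNA (adjusted p = 0.11) and higher in RPF (0.39, adjusted p = 0.025), and *Gnb1*, a beta subunit, was higher in total RNA (0.54, adjusted p = 0.041). In TE none of the 32 was higher and 4 were lower, beside 3.24% and 6.57% of all genes: *Rgs2* (-2.004, edgeR adjusted p = 0.00019), *Arrb2* (-0.94, adjusted p = 0.00015), *Rap1b*, a switch for integrins (-0.83, adjusted p = 0.0075), and *Gnai3* (-0.37, adjusted p = 0.032). All 4 were higher in total RNA.

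**Figure D5:**
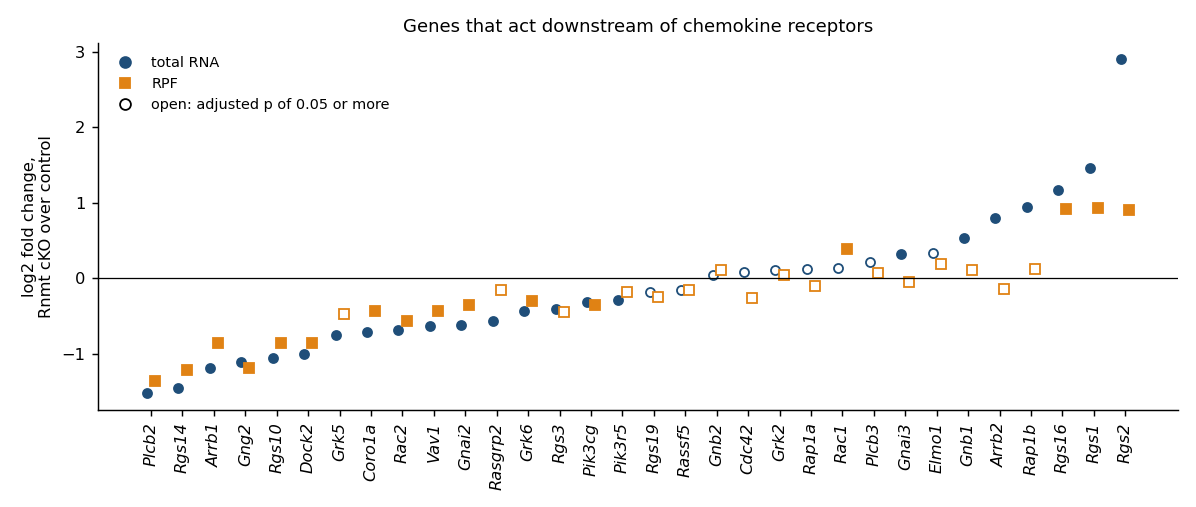
Log2 fold change of *Rnmt* cKO over control (vertical axis) for the 32 tested genes downstream of chemokine receptors, ordered by the total RNA value; circles are total RNA, squares RPF and open symbols had an edgeR adjusted p of 0.05 or more. The values run from *Plcb2* at -1.52 to *Rgs2* at 2.90 in total RNA, and the squares at the right end lie well below their circles.

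Genes whose pattern was most like each of the 9 were sought among 6667 others whose average log2 CPM was 4 or more in both kinds, by Pearson's r of log2 CPM over the 12 libraries, centred within each kind; the genotype difference is part of this likeness. *Dusp1* (r = 0.99) and *Fam107b* (0.99) were most like *Ccl3*, *A130010J15Rik* (0.99) and *Pkp3* (0.99) most like *Ccl4*, and *Dusp1* (0.99) and *Lemd2* (0.98) most like *Xcl1*. *Nampt* (0.96) and *Jun* (0.94) were most like *Cxcl10*, and *Myo10* (0.96) and *Atg3* (0.94) most like *Ccl5*. For the receptors they were *Mllt6* (0.91) and *Tap1* (0.91) for *Cxcr3*, *Zbtb14* (0.97) and *Ppp2cb* (0.97) for *Cxcr4*, *Pros1* (0.91) and *Tada2a* (0.90) for *Ccr4*, and *Il4ra* (0.96) and *Sema4b* (0.96) for *Ccr8*. *Ccl3* and *Xcl1* thus shared *Dusp1*, and no other listed gene recurred among the 9.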

How the data were processed

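Total cytoplasmic RNA and RPF libraries were made with the Illumina TruSeq Ribo Profile kit, 3 per group. Per the labels and methods, the authors kept read 2 because read 1 failed, trimmed adapters with Cutadapt, removed rRNA and tRNA reads with Bowtie, aligned to mm10 (GRCm38) with STAR 2.5.2b and GENCODE vM12, and deposited raw counts of uniquely aligned reads per gene. A deposited table also gives normalized signal per library, from counts of the sense strand (100% of its genes at 1 factor per library, within 0.0001), and the authors' log2 fold changes and p-values, which were not used. Reads that named no gene (4 rows) were 41.1 to 47.0% of total RNA and 53.9 to 70.4% of RPF reads and were left out of library sizes. Reads shared by near-identical genes were not counted, and duplicates were not separated.

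Genes above 1 CPM in at least 3 libraries of a kind were compared with edgeR 4.0.16 (R 4.3.3), by TMM and the quasi-likelihood test, within total RNA (11519 genes), within RPF (11428) and, for TE, as the interaction over all 12 libraries (10668). P-values were adjusted by Benjamini-Hochberg over all genes tested, with a threshold of 0.05. SE is the log2 fold change divided by the root of F, and 95% intervals used its degrees of freedom. The median SE was 0.101, 0.124 and 0.16. Values are shares of sequenced RNA, so RNA content per cell is not seen. The study reported less mRNA per cell in activated *Rnmt* cKO than in control cells. It states that sequencing therefore overstates rises of single genes and understates falls, so the rises given here may be smaller per cell. P-values within total RNA and within RPF measure the spread between mice. Those of the main TE fit treat the 12 libraries as independent, although the libraries of a mouse share its cells. Fits were tested on simulated data. Same-numbered total RNA and RPF libraries deviated together (r = 0.16, 0.20 and 0.38 in control, 0.11, 0.36 and 0.29 in *Rnmt* cKO). Numbers therefore pair them for the ratios per mouse and the TE fit with the mouse as a block, not in the main TE fit.

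Alternatives were library size, DESeq2 1.42.0, TMM of protein-coding genes, no filter, 10 counts in every library, both strands, the exact test, a replicate block, each mouse left out and *Rnmt* cKO replicate 3 alone. The 9 genes and all lists (34 chemokines, 19 receptors, 34 signalling genes, and cell markers) were chosen with earlier results of these data known. Genes named are the 9, *Rnmt*, any list gene that passed the filter, always including the 3 largest changes past the threshold per list and comparison, and the 2 genes most alike in pattern; list genes below the filter were named for their role as ligand partners or cell markers. 3′ UTRs came from GENCODE vM21, which also gave positions; like length means 0.8 to 1.25 times. Tables and figures used Python 3.11.15, pandas 2.3.3, numpy 2.4.6 and matplotlib 3.10.9. Some items are not reported here.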

Additional observations from a re-analysis of the deposited data

Results flagged for a closer look

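The genotype effect differed between RPF and total RNA, by the interaction test of edgeR, for 5 genes of the pathway lists and for *Rnmt*, all lower in RPF relative to total RNA: *Rgs2* (-2.004), *Arrb2* (-0.94), *Rap1b* (-0.83), *Ccr7* (-0.41), *Gnai3* (-0.37) and *Rnmt* (-1.62), on the log2 scale. Among reads on the opposite strand, which no comparison used, *Ccr4* had 11 RPF counts over the 3 *Rnmt* cKO libraries, 10 of them in replicate 1, and 6 in the controls. The other 8 genes had at most 1 such count per library. With 3 libraries a group, no check for single outlying samples was made.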

How the results depend on the processing

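With no filter on low counts, 8 of the 9 genes and 9 other pathway genes were higher in RPF instead of 5 and 5. Of all genes, 1867 were then higher in RPF instead of 1612. In TE 3 pathway genes were lower instead of 5, and 214 of all genes were higher instead of 346. The cause was not tested. With *Rnmt* cKO replicate 3 alone against the controls, an alternative chosen after the data were seen that has fewer libraries, 3 of the 9 genes, 3 other pathway genes and 484 of all genes were higher in RPF (5, 5 and 1612 with all libraries), 6 pathway genes and 540 of all genes were lower (12 and 1796), and in TE 81 genes were higher, 291 lower and 2 pathway genes lower (346, 701 and 5). *Ccr4* then had log2 fold changes of -0.41 in total RNA and -0.64 in RPF, and TE values of -0.050 for *Xcl1* and -0.32 for *Cxcl10* changed sign, as did *Xcl1* with counts of both strands (-0.044); neither TE value was called in any fit. Leaving out each mouse gave 7 to 9 of the 9 genes higher in total RNA, 5 to 7 in RPF and 0 in TE. Of all genes, 2347 to 3251 were then higher in total RNA, 1110 to 1431 in RPF and 125 to 365 in TE. Other pathway genes higher in RPF numbered 4 to 8 (8 without *Rnmt* cKO replicate 3). In TE, 2 to 7 pathway genes and 419 to 801 of all genes were lower. TE values that crossed 0 when a mouse was left out ran from -0.17 to 0.15 for *Xcl1*, -0.18 to 1.19 for *Cxcl10*, -0.58 to 0.28 for *Cxcr3* and -0.19 to 0.031 for *Ccr4*. Replicate numbers did not pair mice across genotypes (r of deviations -0.29, -0.22 and -0.52 in total RNA, 0.15, -0.05 and -0.07 in RPF, and in total RNA no library correlated best with its own number). With the replicate block 8 of the 9 genes were higher in total RNA and 6 in RPF, where *Ccr8* joined (0.98, adjusted p = 0.015), and all genes called higher were 2455 in total RNA and 1596 in RPF; with the block for the mouse in TE, 0 of the 9 genes and 6 pathway genes were called. *Ccl3*, *Ccl4*, *Ccl5*, *Xcl1*, *Cxcl10*, *Cxcr3* and *Cxcr4* in total RNA kept their direction and call in every alternative that tested them. By CPM without length, *Ccl4* ranked first and *Ccr4* second in control total RNA. No scaling moved the median of all genes by more than 0.05 on the log2 scale. Depth limits *Ccl5*, *Cxcl10* and *Cxcr3* most, whose control libraries hold 2 to 36 reads.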
